A study of Mus musculus with 8 samples.

Results

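The genes described here are 8 genes used to recognise lymphatic vessels or the signals that build them: Prox1, Flt4, Vegfc, Vegfd, Lyve1, Pdpn, Mmrn1 and Reln. They were taken by symbol from a table of 48607 assembled loci in RNA-seq of the whole mouse aorta. All 8 symbols were found, and where a symbol named more than 1 locus the locus with the largest summed count was used. They were named by symbol, with no threshold on a measured value.

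Lymphatic vessels of the arterial wall lie in the adventitia, where they drain fluid, lipoproteins and immune cells. Lymphatic endothelial cells arise from venous endothelium under the transcription factor Prox1, and they grow when the ligands VEGF-C and VEGF-D activate the receptor tyrosine kinase encoded by Flt4. Several of the genes are not private to these cells, since some adventitial macrophages make Lyve1, fibroblasts and mesothelial cells make Pdpn, and Vegfc and Vegfd come largely from cells around the vessel.

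Aortas came from mice on a Western diet, which the methods give as 12 weeks, and poly(A) RNA of the entire vessel was sequenced. By title, 5 libraries were ApoE-/- and 3 were NPRC-/-ApoE-/-. All animals thus lacked ApoE, and the second group also carried a CRISPR frameshift in exon 1 of Npr3, the gene of the natriuretic peptide clearance receptor NPRC, made in C57BL/6 mice and crossed into the ApoE-/- line as littermates. The deletion was germline and not limited to a cell type, the labels give neither age nor sex, and the methods name 5 animals in each group while 8 libraries were analysed here.

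The genotype entered for each sample disagreed with the title in 4 of the 8 libraries. ApoE-/- 4 and 5 were entered as NPRC-/-ApoE-/-, and NPRC-/-ApoE-/- 1 and 2 were entered as ApoE-/-. The design text of the series gives 5 and 3. The titles and the genotype entries both split 5 and 3, so that text favours neither. The titles, which carry the replicate number, define the groups here, and each comparison was repeated with the genotype entry. Total counts ranged from 62969165 to 86693276 per library. Smooth muscle markers summed to 1295 to 2880 FPKM (fragments scaled by transcript length and by how many mapped in that library) and endothelial markers to 95.0 to 111 FPKM, so the labelled tissue carried its defining cell types in every library. ApoE-/- 2 stood apart in its markers, since in it lymph node and B cell markers summed to 21.8 FPKM against 3.57 to 8.33 in the other libraries, and mesothelial markers to 6.24 FPKM against 0.16 to 1.04.

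The promoters of 6 of the genes are shown because these genes fall into the pair of expression patterns described further on: Prox1, Flt4, Mmrn1 and Reln varied together across libraries, and Pdpn and Vegfc varied together. Each sequence is the 300-base window of RefSeq on build GRCm38.p6, from 250 bases before to 50 bases after the transcript start, written 5′ to 3′ on the strand of the gene. The printed Prox1, Flt4 and Mmrn1 windows lie inside the gene spans given below, so these transcript starts are internal to the genes measured. For Mmrn1 the gene begins at 60924976 and the window at 60944067. Capitals mark exact matches on either strand to the letters AGATAA searched for GATA factors, ACAATG for SOX factors, TAAACA for forkhead factors, AGGTCA for NR2F2 or CCGGAAG for ETS factors, and no match overlapped another.
Prox1 (chr1:190169466-190169765, minus strand): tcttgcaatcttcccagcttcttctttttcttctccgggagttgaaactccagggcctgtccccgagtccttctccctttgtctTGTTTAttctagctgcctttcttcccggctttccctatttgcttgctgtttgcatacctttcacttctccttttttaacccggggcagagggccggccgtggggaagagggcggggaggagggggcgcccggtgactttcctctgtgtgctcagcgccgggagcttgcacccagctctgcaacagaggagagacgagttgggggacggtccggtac
Flt4 (chr11:49609429-49609728, plus strand): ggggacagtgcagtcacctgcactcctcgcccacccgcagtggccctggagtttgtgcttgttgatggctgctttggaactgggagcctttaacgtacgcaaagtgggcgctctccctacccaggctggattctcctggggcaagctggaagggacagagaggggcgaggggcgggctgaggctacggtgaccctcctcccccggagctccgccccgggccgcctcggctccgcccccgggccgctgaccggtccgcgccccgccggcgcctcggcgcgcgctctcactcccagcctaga
Mmrn1 (chr6:60944067-60944366, plus strand): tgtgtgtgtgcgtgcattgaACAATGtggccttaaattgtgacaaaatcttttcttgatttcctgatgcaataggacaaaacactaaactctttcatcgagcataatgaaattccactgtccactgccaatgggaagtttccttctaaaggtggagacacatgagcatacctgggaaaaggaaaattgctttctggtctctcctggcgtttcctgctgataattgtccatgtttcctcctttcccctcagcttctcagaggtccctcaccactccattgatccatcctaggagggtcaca
Reln (chr5:22344656-22344955, minus strand): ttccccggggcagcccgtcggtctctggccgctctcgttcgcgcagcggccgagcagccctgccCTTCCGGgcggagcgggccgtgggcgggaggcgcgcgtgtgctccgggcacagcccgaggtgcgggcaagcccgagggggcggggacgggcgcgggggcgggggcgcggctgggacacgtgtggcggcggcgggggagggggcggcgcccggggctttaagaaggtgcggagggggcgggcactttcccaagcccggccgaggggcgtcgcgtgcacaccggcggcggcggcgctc
Pdpn (chr4:143299515-143299814, minus strand): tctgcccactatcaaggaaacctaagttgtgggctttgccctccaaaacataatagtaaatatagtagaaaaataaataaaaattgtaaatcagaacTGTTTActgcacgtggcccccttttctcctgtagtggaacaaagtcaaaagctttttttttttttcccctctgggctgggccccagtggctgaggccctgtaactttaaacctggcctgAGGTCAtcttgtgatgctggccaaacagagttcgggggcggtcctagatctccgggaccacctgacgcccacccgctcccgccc
Vegfc (chr8:54077282-54077581, plus strand): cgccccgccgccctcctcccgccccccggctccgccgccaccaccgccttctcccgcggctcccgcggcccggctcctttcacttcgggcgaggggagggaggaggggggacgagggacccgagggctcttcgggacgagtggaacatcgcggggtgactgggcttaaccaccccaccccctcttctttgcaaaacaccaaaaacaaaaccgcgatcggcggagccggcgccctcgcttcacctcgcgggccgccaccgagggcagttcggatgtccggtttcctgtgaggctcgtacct

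Among the 4 promoters of the first pattern, the letters found were a forkhead match at position -166 from the Prox1 start, a SOX match at -230 in Mmrn1 and an ETS match at -186 in Reln, while the Flt4 window held none. No motif was found in more than 1 of these 4 windows. Prox1 has a second promoter entry, at chr1:190170778-190171077, which held none of the letters. The Pdpn window held a forkhead match at position -153 and an NR2F2 match at -34, and the Vegfc window held none. Of all 32851 promoters in the table, 11.2% held the GATA letters, 12.6% SOX, 13.4% forkhead, 16.3% NR2F2 and 8.86% ETS. Lyve1 has no entry in that table. The Vegfd window held a GATA match at position -29 and is not printed.

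Npr3, the targeted gene, is a minus-strand gene of chromosome 15 (11839896 to 11907287). Its level was 1.69, 0.93, 0.62, 1.01 and 1.67 FPKM in ApoE-/- 1 to 5 and 1.18, 1.39 and 1.13 FPKM in NPRC-/-ApoE-/- 1 to 3. The groups overlapped, with a log2 fold change of 0.10 ± 0.28 (SE) by title (adjusted p = 0.901, Benjamini-Hochberg, from the quasi-likelihood test of edgeR) and 0.16 ± 0.28 by the genotype entered. A frameshift need not lower the RNA of a gene, so these levels check neither set of labels.

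None of the lymphatic genes differed between the titled groups after adjustment. Of the 7 tested, 0 met the criterion of the study (fold above 2 or below 0.5 with an unadjusted p under 0.05), against 3.47% of 20506 loci, and 0 had an adjusted p under 0.05, as for 0% of all loci. At an unadjusted p under 0.05 there was 1 gene of 7, the locus that holds Vegfd, against 13.6% of all loci. Prox1 was below 1 FPKM in every library and did not pass the filter of at least 1 FPKM in at least 3 libraries, so its difference is from a fit without that filter. The median log2 fold change was 0.06 over the 7 genes and -0.01 over all tested loci. In whole tissue, fewer cells of a type and less RNA per cell cannot be told apart.

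**Figure D1:**
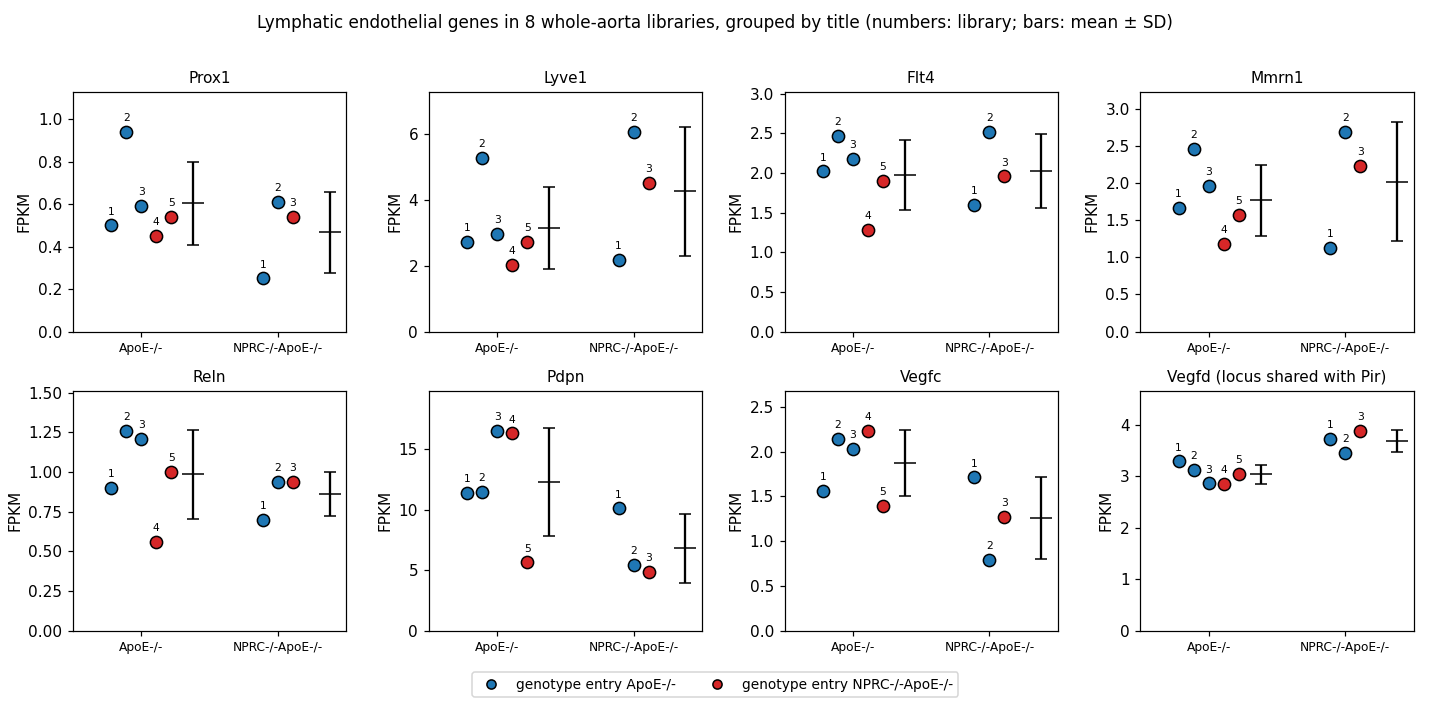
FPKM (vertical axes, starting at 0) of the 8 genes in each library, grouped by title on the horizontal axis, with the library number above each point, the genotype entry as colour, and the group mean and SD as a bar. The Vegfd locus is the only gene whose groups do not meet (2.85 to 3.29 against 3.45 to 3.88 FPKM), and ApoE-/- 2 and NPRC-/-ApoE-/- 2 are highest for Lyve1, Flt4 and Mmrn1.

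Prox1 (ENSMUSG00000010175), which sets and maintains lymphatic endothelial identity, spans 190118035 to 190170714 on chromosome 1 (minus strand). It was the lowest of the genes, at 0.50, 0.94, 0.59, 0.45 and 0.54 FPKM in ApoE-/- 1 to 5 and 0.25, 0.61 and 0.54 FPKM in NPRC-/-ApoE-/- 1 to 3. ApoE-/- 2 was highest and NPRC-/-ApoE-/- 1 lowest, and the groups overlapped. Its counts ranged from 220 to 636 per library. The difference was -0.34 ± 0.34 (log2 fold change ± SE, n = 5 and 3) by title, with an adjusted p of 0.693 from edgeR. Antisense genes share 964 bases (Gm28172) and 419 bases (Prox1os) with Prox1, and whether the counting used strand is not given in the sources used here.

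Flt4, the receptor for VEGF-C and VEGF-D, spans 49609263 to 49652739 on chromosome 11 (plus strand). It was at 2.02, 2.47, 2.18, 1.28 and 1.9 FPKM in ApoE-/- 1 to 5 and at 1.6, 2.52 and 1.96 FPKM in NPRC-/-ApoE-/- 1 to 3. The lowest library was ApoE-/- 4, and the NPRC-/-ApoE-/- values lay within or just above the range of the others. The group means were 1.97 ± 0.441 (SD, n = 5) and 2.03 ± 0.464 FPKM (SD, n = 3). The log2 fold change was 0.06 ± 0.22 by title (adjusted p = 0.921, edgeR), and its sign turned negative without ApoE-/- 4 (-0.03) or NPRC-/-ApoE-/- 2 (-0.08).

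The ligand gene Vegfc, whose protein drives lymphatic sprouting, spans 54077606 to 54187096 on chromosome 8 (plus strand). It was at 1.56, 2.14, 2.03, 2.23 and 1.39 FPKM in ApoE-/- 1 to 5 and at 1.71, 0.79 and 1.27 FPKM in NPRC-/-ApoE-/- 1 to 3. The groups overlapped through NPRC-/-ApoE-/- 1, which was above ApoE-/- 1 and 5. The means were 1.87 ± 0.372 (SD, n = 5) and 1.26 ± 0.460 FPKM (SD, n = 3), and the log2 fold change was -0.56 ± 0.30 (unadjusted p = 0.0899, adjusted p = 0.43, edgeR). A second locus named Vegfc, from 54090411 to 54091805, lies in intron 1 of all 3 annotated Vegfc transcripts and held 123 to 273 counts per library. With both loci summed the log2 fold change was -0.48.

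Vegfd, the second ligand, could not be measured apart from its neighbour. The assembled locus runs on the plus strand of chromosome X from 164269371 to 164400780 and joins Pir (164269371 to 164373011) to Vegfd (164373378 to 164402650). Pir encodes pirin, an iron-binding nuclear protein. Its values of 3.29, 3.13, 2.86, 2.85 and 3.04 FPKM in ApoE-/- 1 to 5 were all below those of 3.72, 3.45 and 3.88 FPKM in NPRC-/-ApoE-/- 1 to 3. It was the only 1 of the 8 whose log2 CPM (counts scaled to library size) did not overlap between the titled groups, against 7.41% of all tested loci and 3.72% in this direction. The means were 3.03 ± 0.186 (SD, n = 5) and 3.68 ± 0.217 FPKM (SD, n = 3). The log2 fold change was 0.31 ± 0.11 (unadjusted p = 0.0213, adjusted p = 0.312, edgeR), and the difference in log2 CPM of 0.30 had the smallest two-sided exact permutation p that 5 against 3 libraries allow (p = 0.0357). By genotype entry it was 0.02 ± 0.16.

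Lyve1, a hyaluronan receptor on the surface of lymphatic endothelium, spans 110850607 to 110863239 on chromosome 7 (minus strand). It was at 2.73, 5.27, 2.97, 2.02 and 2.72 FPKM in ApoE-/- 1 to 5 and at 2.18, 6.06 and 4.52 FPKM in NPRC-/-ApoE-/- 1 to 3. The 3 libraries ApoE-/- 2 and NPRC-/-ApoE-/- 2 and 3 were well above the other 5, which lay between 2.02 and 2.97 FPKM, and both groups held high and low libraries. The means were 3.14 ± 1.24 (SD, n = 5) and 4.25 ± 1.95 FPKM (SD, n = 3). The log2 fold change was 0.47 ± 0.37 by title (adjusted p = 0.582, edgeR) and -0.27 ± 0.40 by genotype entry. Markers of resident macrophages, some of which also carry Lyve1, summed to 159 to 240 FPKM in ApoE-/- and 143 to 159 FPKM in NPRC-/-ApoE-/- libraries. Gas6 alone had a mean of 118 FPKM over the 8 libraries. By title, 4 of the 7 tested markers had a log2 fold change below 0, 3 of them with an unadjusted p under 0.05. By genotype entry 6 were below 0 and 0 had such a p.

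Pdpn, a mucin-type membrane glycoprotein that binds the platelet receptor encoded by Clec1b, spans 143267431 to 143299564 on chromosome 4 (minus strand). It was the most abundant of the genes, at 11.43, 11.51, 16.53, 16.33 and 5.65 FPKM in ApoE-/- 1 to 5 and at 10.11, 5.46 and 4.89 FPKM in NPRC-/-ApoE-/- 1 to 3. ApoE-/- 1 to 4 were above all 3 NPRC-/-ApoE-/- libraries, and ApoE-/- 5 was not. The means were 12.3 ± 4.46 (SD, n = 5) and 6.82 ± 2.86 FPKM (SD, n = 3). The log2 fold change was -0.86 ± 0.40 (unadjusted p = 0.0587, adjusted p = 0.38, edgeR).

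Pdpn was the gene whose call depended on single libraries. Without ApoE-/- 5 its log2 fold change was -1.05 (adjusted p = 0.161, edgeR), and without NPRC-/-ApoE-/- 1 it was -1.23 (adjusted p = 0.166), both past the fold criterion at an unadjusted p under 0.05. In the 4 libraries whose title and genotype entry match, which set ApoE-/- 1, 2 and 3 against the single library NPRC-/-ApoE-/- 3, it was -1.35 (adjusted p = 0.254, edgeR), a fit in which the lone library is assumed to vary like the others. By genotype entry with all libraries it was -0.26 ± 0.48.

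Mmrn1, a secreted multimeric glycoprotein of platelets and endothelium that is abundant in lymphatic endothelial cells, spans 60924976 to 60989378 on chromosome 6 (plus strand). It was at 1.67, 2.46, 1.96, 1.18 and 1.57 FPKM in ApoE-/- 1 to 5 and at 1.13, 2.69 and 2.23 FPKM in NPRC-/-ApoE-/- 1 to 3. The NPRC-/-ApoE-/- group held both the lowest and the highest library. The means were 1.77 ± 0.477 (SD, n = 5) and 2.02 ± 0.802 FPKM (SD, n = 3), with a log2 fold change of 0.22 ± 0.31 (adjusted p = 0.78, edgeR). Platelet and megakaryocyte markers summed to 6.32 to 9.63 FPKM in ApoE-/- and 4.54 to 7.33 FPKM in NPRC-/-ApoE-/- libraries. Of these, Itga2b (mean over all libraries 2.59 FPKM) shared its locus with Gpatch8, and Gp1bb (2.88) with Sept5 and Gm49601. Gp9, Ppbp and Tubb1, in loci of their own, had means of 0.284, 1.41 and 0.456 FPKM. The sums thus cannot be assigned to platelet genes alone.

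Reln encodes reelin, an extracellular glycoprotein best known for guiding neurons and also released by lymphatic endothelium, and spans 21884454 to 22344702 on chromosome 5 (minus strand). It was at 0.90, 1.26, 1.21, 0.56 and 1.00 FPKM in ApoE-/- 1 to 5 and at 0.70, 0.94 and 0.94 FPKM in NPRC-/-ApoE-/- 1 to 3. All 3 NPRC-/-ApoE-/- values lay inside the ApoE-/- range. The log2 fold change was -0.17 ± 0.26 by title (adjusted p = 0.797, edgeR). An antisense gene, Gm10475, shares 43084 bases with it.

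By genotype entry, 0 of the 7 tested genes met the fold criterion, against 0.463% of loci, and 0 had an unadjusted p under 0.05, against 1.31%. The log2 fold changes of Lyve1 (-0.27), Flt4 (-0.31), Mmrn1 (-0.22) and Vegfc (0.02) had the opposite sign to those by title. For Prox1 (-0.15), Reln (-0.25), Pdpn and the Vegfd locus the sign was the same. The median over the 7 genes was -0.25. No gene separated the groups by genotype entry, against 1.2% of loci whose groups did not overlap.

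**Figure D2:**
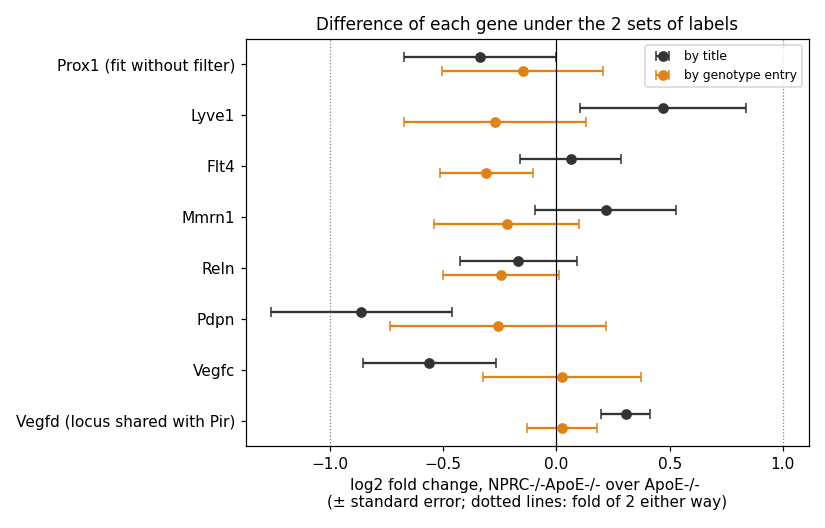
Log2 fold change, NPRC-/-ApoE-/- over ApoE-/- (horizontal axis), of the 8 genes (vertical axis) with its standard error as a bar, by title in grey and by genotype entry in orange, and a fold of 2 either way as dotted lines. Pdpn by title (-0.86) comes nearest to a dotted line, and Lyve1, Flt4, Mmrn1 and Vegfc change sign between the labels.

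In order of mean FPKM over the 8 libraries, Pdpn (10.2 ± 4.66, SD) was followed by Lyve1 (3.56 ± 1.52), the Vegfd locus (3.28 ± 0.382), Flt4 (1.99 ± 0.416), Mmrn1 (1.86 ± 0.575), Vegfc (1.64 ± 0.490), Reln (0.939 ± 0.234) and Prox1 (0.553 ± 0.193). Not all steps of this order stood out from the spread. Lyve1 was above the Vegfd locus in only 4 of 8 libraries, and Mmrn1 above Vegfc in 5 of 8. The step from the Vegfd locus to Flt4 and that from Reln to Prox1 held in all 8.

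The genes differed in how much they varied between libraries. The SD of log2 CPM over the 8 libraries was 0.73 for Pdpn, 0.59 for Lyve1, 0.53 for Prox1, 0.51 for Vegfc, 0.47 for Mmrn1, 0.38 for Reln, 0.31 for Flt4 and 0.18 for the Vegfd locus, against a median of 0.34 over all tested loci. Pdpn was thus more variable than 88.3% of tested loci and the Vegfd locus more variable than only 15.0%.

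Across libraries the genes followed a pair of patterns. Prox1, Lyve1, Flt4, Mmrn1 and Reln, a group named after its values were seen, had a positive r in all 10 of their pairs (Pearson r of log2 CPM 0.628 to 0.955, median 0.786, n = 8 libraries). An exact permutation p under 0.05 was found for 8 of these 10. Without the 2 libraries farthest from the median of Mmrn1, r of Mmrn1 with Reln was 0.379. Within the titled groups, with each group's mean removed, r of the 10 pairs was 0.727 to 0.982, and over the 5 ApoE-/- libraries alone it was 0.739 to 0.976. The 15 pairs between these genes and Pdpn, Vegfc or the Vegfd locus had r between -0.505 and 0.325. Of all 28 pairs, 9 had an exact permutation p under 0.05 and 6 a Benjamini-Hochberg adjusted p under 0.05. Of these, 5 were among the 10 pairs and the other was that of Pdpn with Vegfc. How common such p-values are among pairs of other loci was not examined. In likeness to Lyve1, Mmrn1 was number 2, Flt4 number 37 and Reln number 706 of 18477 loci. In likeness to Prox1, Mmrn1 was number 76, Reln 198, Lyve1 252 and Flt4 286 of 18478.

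**Figure D3:**
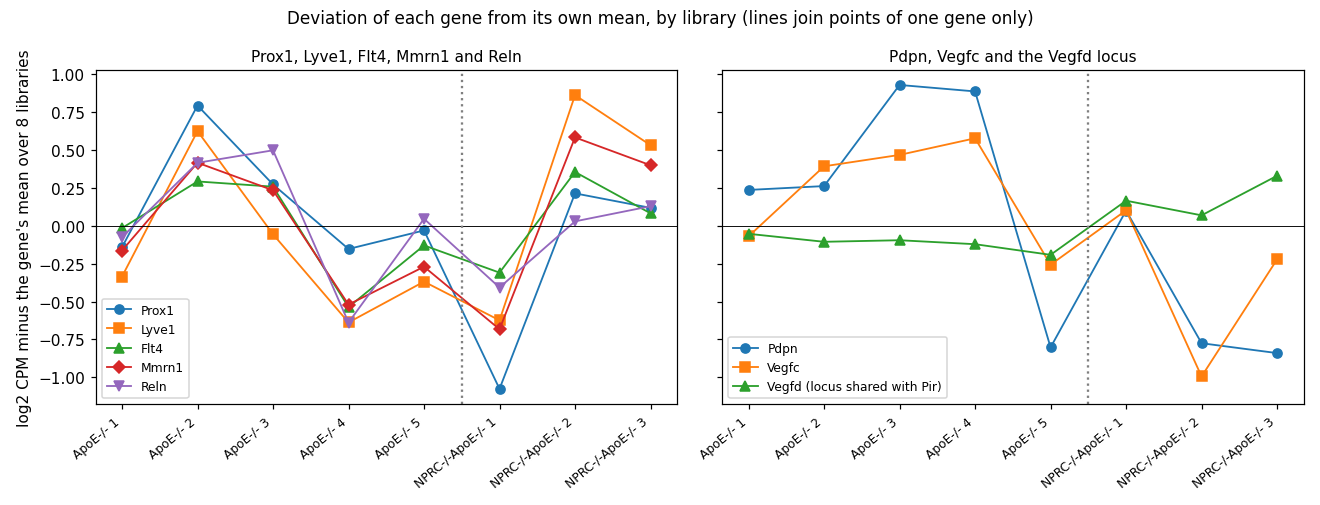
Log2 CPM minus the gene's own mean over the 8 libraries (vertical axis) for each library (horizontal axis, titled groups separated by a dotted line), with lines joining the points of 1 gene. In the left panel Prox1, Lyve1, Flt4, Mmrn1 and Reln are all above their mean in ApoE-/- 2 and all below it in ApoE-/- 4 and NPRC-/-ApoE-/- 1, and in the right panel, Pdpn and Vegfc are high in ApoE-/- 2, 3 and 4 and the Vegfd locus is nearly flat.

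Lyve1 and Mmrn1 were the closest pair, with r = 0.955 (exact permutation p = 0.000149, adjusted p = 0.00417 over 28 pairs) and Spearman's rho = 0.976 (exact permutation p = 0.000397). Without the 2 libraries farthest from the median of Lyve1, r was 0.936. Ranked by r among 18477 loci, Mmrn1 was number 2 for Lyve1 and Lyve1 was number 2 for Mmrn1. Flt4, the receptor, followed Mmrn1 with r = 0.917 (exact permutation p = 0.00278, adjusted p = 0.0292) and rho = 0.952 (exact permutation p = 0.00114), and r was 0.886 without the 2 farthest libraries.

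Flt4 was also correlated with Reln (r = 0.879, exact permutation p = 0.0067, adjusted p = 0.0312, rho = 0.69 with an exact permutation p of 0.0694), but r was 0.543 without the 2 farthest libraries, so this relation rested in part on them. With Lyve1, Flt4 had r = 0.851 (exact permutation p = 0.0061, adjusted p = 0.0312, rho = 0.976 with p = 0.000397) and 0.732 without the 2 farthest. For Prox1 and Mmrn1, r was 0.805 (exact permutation p = 0.00481, adjusted p = 0.0312, rho = 0.857 with p = 0.0107) and 0.861 without the 2 farthest. On log2(FPKM + 1) the calls of Flt4 with Reln and of Prox1 with Mmrn1 were lost (adjusted p = 0.0505 for both by exact permutation). Prox1 and Lyve1 had r = 0.707 (exact permutation p = 0.0197, adjusted p = 0.0788).

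Pdpn and Vegfc made up the second pattern, with r = 0.845 (exact permutation p = 0.00313, adjusted p = 0.0292), rho = 0.857 (exact permutation p = 0.0107) and r = 0.936 without the 2 libraries farthest from the median of Pdpn. Within the titled groups r was 0.764. This pair was less particular than Lyve1 and Mmrn1, since Vegfc was number 1724 of 18477 loci in likeness to Pdpn, and Pdpn number 1424 of 18476 in likeness to Vegfc.

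**Figure D4:**
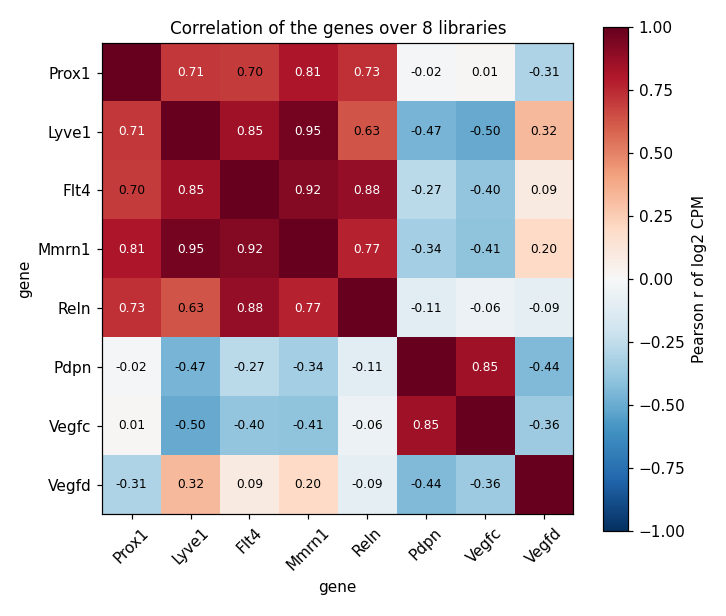
Pearson r of log2 CPM over 8 libraries (colour and printed value, from -1 in blue to 1 in red) for each pair of the 8 genes, which stand on both axes. The block of Prox1, Lyve1, Flt4, Mmrn1 and Reln is red throughout (0.628 to 0.955), as is the pair of Pdpn with Vegfc (0.845), and the remaining cells range from -0.505 to 0.325.

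The library totals moved with the first pattern. NPRC-/-ApoE-/- 2 and ApoE-/- 2 had the smallest totals (62969165 and 67039577) and were first and second for Lyve1, Flt4 and Mmrn1. The correlation of log2 CPM with the total count was -0.707 for Lyve1, -0.659 for Flt4, -0.635 for Mmrn1, -0.619 for Prox1 and -0.406 for Reln, given as a description. Without those 2 libraries the 10 pairs had r between 0.582 and 0.968.

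Markers of other cells also moved with the genes, although none of the 80 relations between the 8 genes and 10 marker lists had an adjusted p under 0.05. For the first pattern the highest values were with cardiomyocyte markers, at r = 0.897 for Flt4 (exact permutation p = 0.00437, adjusted p = 0.116, rho = 0.833 with p = 0.0154) and 0.894 for Reln (exact permutation p = 0.00377, adjusted p = 0.116, rho = 0.786 with p = 0.0279). Without the 2 farthest libraries these were 0.686 and 0.668. For Mmrn1, Prox1 and Lyve1 r with the cardiomyocyte markers was 0.717, 0.702 and 0.582. Without the 2 farthest libraries it was 0.291, 0.629 and 0.136. By rank Prox1 was the nearest of the 5 genes to these markers (rho = 0.857, exact permutation p = 0.0107, adjusted p = 0.397). The 6 cardiomyocyte markers summed to 3.23 to 14.5 FPKM in ApoE-/- and 4.27 to 10.5 FPKM in NPRC-/-ApoE-/- libraries, highest in ApoE-/- 2. Of the 3 tested by title, Myh6 (means of 1.61 and 0.383 FPKM) and Actc1 (3.52 and 1.41) had a log2 fold change below 0. The locus used for Ryr2, 1 of 4 of that name, was higher at an unadjusted p under 0.05 in edgeR (2.48 and 4.47 FPKM). It runs from 12060487 to 12105735 on the plus strand of chromosome 13. Whether that is the strand of Ryr2, and how much of the Ryr2 transcript the locus holds, was not examined. The cardiomyocyte sums and r values include this locus. The part of these markers in the pattern was not tested. With endothelial markers, r was between -0.07 and 0.07 for the 5 genes, but without the 2 libraries farthest from the median of the markers it was 0.665 for Lyve1, 0.512 for Mmrn1, 0.365 for Flt4, 0.106 for Reln and 0.0586 for Prox1.

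Vegfc and Pdpn moved with the markers of adventitial fibroblasts. For Vegfc r was 0.928 (exact permutation p = 0.00313, adjusted p = 0.116, rho = 0.81 with p = 0.0218) and 0.85 without the 2 farthest libraries. For Pdpn it was 0.847 (exact permutation p = 0.00888, adjusted p = 0.178, rho = 0.857 with p = 0.0107) and 0.777 without them. The 7 fibroblast markers summed to 285 to 639 FPKM in ApoE-/- and 155 to 358 FPKM in NPRC-/-ApoE-/- libraries. All 7 had a log2 fold change below 0 by title, 2 of them with an unadjusted p under 0.05, and by genotype entry 6 were below 0 and 0 had such a p. The part of the fibroblast markers in the Vegfc and Pdpn values was not tested.

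The Vegfd locus moved with smooth muscle markers (r = 0.776, exact permutation p = 0.0605, adjusted p = 0.452, rho = 0.667 with p = 0.0831), and r was 0.315 without the 2 farthest libraries. It moved inversely with Schwann cell markers over all 8 libraries (r = -0.75, exact permutation p = 0.0537, adjusted p = 0.452, rho = -0.69 with p = 0.0694). Without the 2 farthest libraries r was -0.88. Within the titled groups, with each group's mean removed, r was 0.204 with smooth muscle markers and 0.433 with Schwann cell markers. The inverse relation with Schwann cell markers was thus not seen within the groups. All 6 smooth muscle markers were higher in the NPRC-/-ApoE-/- libraries at an unadjusted p under 0.05, with sums of 1673 to 2880 against 1295 to 1741 FPKM, and 0 of 6 reached that p by genotype entry. The 5 Schwann cell markers summed to 3.01 to 4.87 FPKM in NPRC-/-ApoE-/- and 6.4 to 7.94 FPKM in ApoE-/- libraries, with all 4 tested lower by title at an unadjusted p under 0.05 and 0 by genotype entry. Whether either list had a part in the difference of the Vegfd locus was not tested.

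The genes were also set against 10 endothelial markers, whose mean log2 CPM was 6.44 in both titled groups. Single markers went both ways, with 5 of 10 below 0. The vascular endothelial cadherin gene Cdh5 was at 13.38 to 18.3 FPKM in ApoE-/- and 12.11 to 12.98 FPKM in NPRC-/-ApoE-/- libraries (log2 fold change -0.25, unadjusted p = 0.0595, adjusted p = 0.381, edgeR). The locus used for the ETS factor gene Erg was at 1.5 to 2.74 and 2.22 to 3.08 FPKM (0.48, unadjusted p = 0.0486, adjusted p = 0.364, edgeR). It was the largest by count of 6 loci named Erg, and runs from 95418106 to 95456531 on the plus strand of chromosome 16. Whether that is the strand of Erg, and how much of the Erg transcript this locus holds, was not examined. Its value thus cannot be read as the level of Erg RNA, and the mean of the 10 markers includes it. Relative to that mean, the Vegfd locus differed by 0.31 without overlap (two-sided exact permutation p = 0.0357, the smallest possible). The other 7 genes overlapped, with differences from -0.80 for Pdpn (exact permutation p = 0.25) to 0.41 for Lyve1 (exact permutation p = 0.429).

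A list of 45 other genes of lymphatic growth, identity and valves was examined in the same fit. All 45 were in the table and none was at 0 in every library, and 35 passed the filter. By title 1 was higher and 6 lower at an unadjusted p under 0.05, against 6.51% and 7.13% of all loci. None met the fold criterion or had an adjusted p under 0.05. Below 0 were 26 of the 35, against 50.9% of all loci, and their median log2 fold change was -0.20. By genotype entry 23 were below 0, against 51% of all loci, none had an unadjusted p under 0.05, and the median was -0.08.

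Among receptors and coreceptors, Nrp2, which assists Flt4 in binding VEGF-C, had the smallest p of the list. It was at 5.36, 4.62, 4.92, 5.45 and 5.22 FPKM in ApoE-/- 1 to 5 and at 4.43, 3.06 and 3.03 FPKM in NPRC-/-ApoE-/- 1 to 3, with no overlap. The log2 fold change was -0.53 ± 0.15 (unadjusted p = 0.00737, adjusted p = 0.267, edgeR). Nrp1, the related coreceptor, was at 12.7 to 13.6 FPKM in ApoE-/- and at 13.16, 9.44 and 7.39 FPKM in NPRC-/-ApoE-/- 1 to 3 (log2 fold change -0.39, adjusted p = 0.351, edgeR), in a locus shared with Mir1903. Itga9, an integrin subunit needed for lymphatic valves, was the 1 gene of the list that was higher at an unadjusted p under 0.05, at 9.86 to 18.9 against 14.8 to 27.2 FPKM (log2 fold change 0.66, adjusted p = 0.316, edgeR).

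Transcription factors and surface genes gave the other small p values. Hhex, a homeobox factor acting upstream of Prox1 and Flt4, was at 1.14 to 1.44 FPKM in ApoE-/- and at 1.18, 0.65 and 0.48 FPKM in NPRC-/-ApoE-/- 1 to 3 (log2 fold change -0.77, adjusted p = 0.292, edgeR). The flow-responsive factor Klf2 was at 7.06 to 12.4 against 5.21 to 6.66 FPKM (-0.63, adjusted p = 0.33, edgeR). Ezr, which encodes ezrin, a linker of podoplanin to the actin cytoskeleton, was at 3.68 to 5.91 against 2.44 to 3.63 FPKM (-0.82, adjusted p = 0.278, edgeR).

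Fxyd6, a regulator of the sodium pump, was at 2.09 to 5.17 against 1.91 to 2.68 FPKM (-0.72, adjusted p = 0.359, edgeR). The next genes by p were S1pr1, the sphingosine-1-phosphate receptor (-0.30, unadjusted p = 0.0652), the junction gene Cldn5 (-0.55, unadjusted p = 0.0754) and the stretch-gated channel gene Piezo1 (-0.43, unadjusted p = 0.114), with adjusted p of 0.392, 0.411 and 0.46 in edgeR. For each of these 10 genes NPRC-/-ApoE-/- 2 or 3 was the library farthest toward the sign of the difference, except Klf2, for which it was NPRC-/-ApoE-/- 1. The 2 libraries NPRC-/-ApoE-/- 2 and 3 also had the lowest sums of fibroblast markers. Their part in these differences was not tested.

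**Figure D5:**
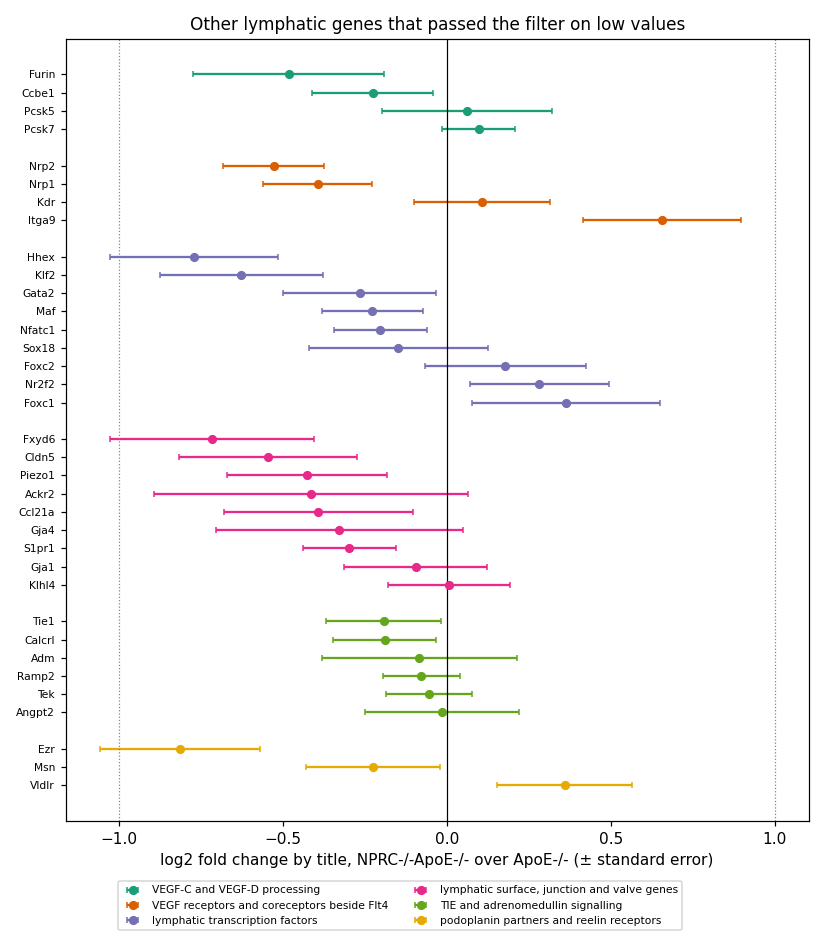
Log2 fold change by title, NPRC-/-ApoE-/- over ApoE-/- (horizontal axis), of the 35 other lymphatic genes that passed the filter (vertical axis, coloured by role), with the standard error as a bar and a fold of 2 either way as dotted lines. Points to the left of 0 are 26 of the 35, and no point lies beyond a dotted line.

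The chemokine gene Ccl21a, made by lymphatic endothelium to attract dendritic cells, had the highest Pearson r with Flt4 among 44 of these genes (r = 0.724, exact permutation p = 0.0573, adjusted p = 0.849, rho = 0.619 with p = 0.115). Without the 2 libraries farthest from the median of Flt4, r was 0.000209, so the value rested on them. By rank, Kdr and Ackr4 were nearer (rho = 0.643 for both), and none of the 44 had a p under 0.05. Flt4 was used for this comparison because its median r with the other genes of the first pattern, 0.865, was the highest.

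Among all tested loci with 1 gene name, those most like each gene over the 8 libraries were listed by Pearson r of log2 CPM, as a description. They were Ap4e1 (0.96), Mmrn1 and Vmn1r-ps47 for Lyve1, Tmem100 (0.961), Lyve1 and Gm22300 for Mmrn1, and Tbl1x (0.981), Gm2178 and Rock2 for Flt4. For Prox1 they were Gm14414 (0.95), Gm10029 and Rnf144b, and for Reln Fkbp1a (0.966), Gm43765 and Pxn. Pdpn was nearest to Apobr (0.992), B4galt5 (0.992) and Bhlhe40 (0.991), Vegfc to Gpr35 (0.996), Rcbtb2 and Gng11, and the Vegfd locus to Gm49338 (0.977), Crim1 and Slc24a4. Lyve1 and Mmrn1 were the only genes of the 8 that named each other.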

How the data were processed

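RNA-seq of 8 whole-aorta libraries was analysed, 5 titled ApoE-/- and 3 titled NPRC-/-ApoE-/-. The authors removed low-quality bases (cutadapt 1.9 per the submitters' processing notes, which also name GRCm38), used HISAT2 for mapping and StringTie for assembly, and deposited a read count, without normalization, for each of 48607 loci. They also deposited an FPKM value per locus and library, normalized by the authors to transcript length and mapped fragments. How loci were counted, and on which strand, is not given in the sources used here. Nothing says how replicates were kept apart beyond their titles, so p-values measure the spread between these libraries. Total counts were 62969165 to 86693276 per library, and the number of libraries limits the precision.

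The 20506 loci that reached 1 FPKM in 3 or more libraries were tested with edgeR 4.0.16 in R 4.3.3 (TMM, quasi-likelihood test, Benjamini-Hochberg adjustment over all loci), a procedure tested on simulated data. Changed loci had a fold above 2 or below 0.5 and an unadjusted p under 0.05, as in the study's methods. Log2 CPM used a prior count of 2. Permutation tests (scipy 1.17.1) were two-sided and exact over all 56 splits or 40320 orders of the libraries. Gene positions follow GENCODE M21.

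The genes and lists were chosen with earlier results of these data known. Named were the 8 genes, Npr3, the 10 of 45 other lymphatic genes with the smallest p by title, any of these at 0 counts in every library, and the 3 loci most like each gene. Replicate numbers did not pair the libraries (correlations of same-numbered deviations -0.31, -0.11 and 0.01). Alternatives covered the label, scaling, test (DESeq2 1.42.0, limma 3.58.1), filter, locus choice, replicate block and each library left out.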

Additional observations from a re-analysis of the deposited data

How the results depend on the processing

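By title, the number of loci past the fold criterion (712) was 95 with the genotype entry, 1815 in the 4 libraries whose labels match (3 against the single library NPRC-/-ApoE-/- 3, assumed to vary like the others), 175 with limma on log2(FPKM + 1), 1491 with voom and sample quality weights, 2287 without a filter, 114 with a mean of at least 5 FPKM and 403 to 1635 with each library left out. Of the 8 genes, 0 met it, except Pdpn, which made 1 in the 4 matching libraries (-1.35), with voom weights (-1.04), without ApoE-/- 5 and without NPRC-/-ApoE-/- 1 (0 to 1 over the libraries left out). Of the other lymphatic genes 0 met it, against 3 in the 4 matching libraries (Itga9, Hhex and Ezr), 1 with voom weights (Hhex), 1 without a filter (Stab2) and 0 to 2 with each library left out, the 2 without NPRC-/-ApoE-/- 1. By genotype entry, 95 loci became 785 without a filter and 84 to 240 with each library left out, and 0 of the 8 genes became 0 to 1 (Pdpn, -1.04, without ApoE-/- 4).

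Signs turned as follows. By title they did so with the genotype entry for Lyve1 (-0.27), Flt4 (-0.31), Mmrn1 (-0.22) and Vegfc (0.0235), and for Flt4 in the 4 matching libraries (-0.11) and with a library left out (-0.0810 to 0.221, negative without ApoE-/- 4 or NPRC-/-ApoE-/- 2). By genotype entry with a library left out, they did so for Pdpn (-1.04 to 0.0261), Vegfc (-0.28 to 0.170) and the Vegfd locus (-0.15 to 0.122). The replicate block on the 6 libraries numbered 1 to 3 gave 800 loci, against 917 without the block, and 0 of the 8 genes in both. Flt4 was -0.14 with the block and -0.12 without it, and Mmrn1 -0.0613 with it, and the pairing changed no call. On log2(FPKM + 1), the adjusted p of Prox1 with Mmrn1 (r = 0.78) and of Flt4 with Reln (r = 0.86) was 0.0505. Leaving out the 2 libraries with the smallest totals was chosen after seeing the data. Where a value moved, the cause was not tested.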
